A study of Mus musculus with 24 samples.

Results

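The 33 genes described here encode enzymes that break down amino acids in the liver. A gene belongs to the set where the array files give its symbol to a gene probe, and the 33 genes are held by 40 of the 55681 distinct gene probes and are 33 of the 15344 named genes tested. All 33 passed the filter on dim probes, and all 33 were well above background on all 24 arrays. They fall into 8 groups by pathway: tyrosine, tryptophan and kynurenine, histidine, glutamine with serine, glyoxylate and transamination, proline and hydroxyproline, branched chain amino acids, lysine, and cysteine and taurine.

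The study asked whether a diet poor in methyl donors changes liver gene expression to different degrees in different inbred strains. Total RNA came from whole liver of male mice, 20 weeks old, of 3 strains (WSB/EiJ, C3H/HeJ and A/J), and was hybridised to 1-colour Agilent arrays, 4 arrays in each of the 6 strain-by-diet groups. The deficient groups ate, for 12 weeks from 8 weeks of age, an iron-supplemented diet built on free amino acids with 0.17% methionine and with neither choline nor folic acid. For the control groups that diet was supplemented: folic acid at 2 mg/kg, choline bitartrate at 0.3% and methionine at 0.4%, so all groups share the purified, iron-supplemented base. The labels number the 4 samples of a group but do not say that each is a separate mouse, so p-values here speak only to how far these samples spread, and that spread may be technical. In RNA of whole liver, fewer hepatocytes and less RNA per hepatocyte cannot be told apart.

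The liver is the main site where the carbon skeletons of most amino acids are oxidised or turned into glucose, and most enzymes of this set are made chiefly by hepatocytes. Most of these pathways remove or transfer the amino group, whose nitrogen can enter urea synthesis, and feed the remaining carbon into pyruvate, the citric acid cycle or ketone bodies; the branch from cysteine to taurine keeps the amino group. Several of these pathways meet the nutrients changed here: histidine breakdown hands a one-carbon unit to tetrahydrofolate, serine is both a fuel and a one-carbon donor, and cysteine, which arises from methionine, is oxidised on the way to taurine.

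Upstream sequences are shown for 5 members from 2 of the pathways, histidine (Hal, Amdhd1 and Ftcd) and tryptophan and kynurenine (Tdo2 and Haao). Other enzymes act between some of these. Hal and Amdhd1 are neighbours on chromosome 10, with 0 protein-coding genes listed between them. Entries of the RefSeq table (build GRCm38.p6, strain C57BL/6J and not the strains studied) were used for 25 of the 33 members. Cdo1 was left out because members on its chromosome were not searched. Each sequence is the 250 bases before the annotated start, 5′ to 3′ on the gene's strand, and capitals mark matches to 4 short motifs searched on both strands: TATAAA (the TATA box), CAAAGTC (an HNF4-type half-site), TTGCNNAA (a C/EBP-type site) and TGTTCT (a glucocorticoid receptor half-site). The windows are chr10:93488518-93488767 (plus strand) for Hal, chr10:93540034-93540283 (minus strand) for Amdhd1, chr10:76575398-76575647 (plus strand) for Ftcd, chr3:81975729-81975978 (minus strand) for Tdo2 and chr17:83846791-83847040 (minus strand) for Haao.
Hal: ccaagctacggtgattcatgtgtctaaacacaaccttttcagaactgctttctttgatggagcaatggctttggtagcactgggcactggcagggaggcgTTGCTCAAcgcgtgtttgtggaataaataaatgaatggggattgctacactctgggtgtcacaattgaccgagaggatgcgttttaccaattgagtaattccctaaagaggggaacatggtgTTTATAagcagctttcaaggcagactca
Amdhd1: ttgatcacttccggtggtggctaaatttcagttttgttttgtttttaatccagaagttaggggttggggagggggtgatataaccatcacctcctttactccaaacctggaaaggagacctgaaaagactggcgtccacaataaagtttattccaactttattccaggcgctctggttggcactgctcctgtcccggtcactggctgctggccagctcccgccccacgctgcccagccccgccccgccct
Ftcd: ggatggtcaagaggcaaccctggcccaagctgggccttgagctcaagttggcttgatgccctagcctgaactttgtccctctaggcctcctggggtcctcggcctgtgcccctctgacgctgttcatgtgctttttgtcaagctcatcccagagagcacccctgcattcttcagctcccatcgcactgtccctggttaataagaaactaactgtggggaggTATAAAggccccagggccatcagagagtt
Tdo2: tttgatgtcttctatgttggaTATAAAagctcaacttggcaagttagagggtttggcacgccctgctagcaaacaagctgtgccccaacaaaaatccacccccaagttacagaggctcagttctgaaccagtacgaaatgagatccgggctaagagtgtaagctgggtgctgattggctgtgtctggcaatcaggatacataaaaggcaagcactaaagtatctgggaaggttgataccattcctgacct
Haao: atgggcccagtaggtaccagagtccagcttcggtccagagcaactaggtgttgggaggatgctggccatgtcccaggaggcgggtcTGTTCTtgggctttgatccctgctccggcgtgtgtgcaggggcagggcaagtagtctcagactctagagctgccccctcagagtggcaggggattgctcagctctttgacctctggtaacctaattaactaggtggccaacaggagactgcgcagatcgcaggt

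The Ftcd window held TATAAA from base -29 to -24 before the start. Hal had TATAAA on the opposite strand from -28 to -23, where it reads TTTATA, and a TTGCNNAA match from -150 to -143. In Haao, TGTTCT lay from -164 to -159, while Tdo2 had TATAAA only at -229 to -224 and Amdhd1 had no match. Over the 27 promoters of the 25 matched members, TTGCNNAA occurred in 22.2% against 9.56% of all 32851 promoters in the table, TATAAA in 14.8% against 12.4%, TGTTCT in 11.1% against 16.1% and CAAAGTC in 3.7% against 3.84%. These shares rest on 6, 4, 3 and 1 promoters in that order and are descriptions of letters, not of binding. GC content of the members' windows ran from 36.4% to 68.0% with a median of 53.6%, beside 52.4% over all promoters.

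Values below are the log2 of the processed signal minus the array's 75th percentile of it, so a value of 6 is a signal 6 doublings above that percentile, and values of different probes are not set against each other. The share of gene spots well above background was 44.4% to 56.0% per array. The 75th percentile itself lay higher on every deficient array than on its strain's control arrays, except A/J deficient 4. In WSB/EiJ it was 8.37 to 8.58 against 7.37 to 7.53 on the control arrays. A/J deficient 4 stood at 7.68, inside the range of the A/J controls (7.65 to 7.87). With this scaling the median of all genes shifted by -0.07, -0.16 and -0.33 with the diet in A/J, C3H/HeJ and WSB/EiJ, while scaling on 10 spike-in probes gave 0.31, 0.36 and 0.63. Of all genes called by the test, 55.2%, 36.0% and 32.1% were higher on the deficient diet in the 3 strains, against 95.7%, 91.4% and 88.8% with spike-in scaling and 62.4%, 52.6% and 49.8% with quantile normalization. With the scaling used here 32, 33 and 32 of the 33 members lay below the median of all genes. Spike-in scaling had to give the same counts, since both subtract 1 number per array and so shift all genes alike. With quantile normalization, which can change a gene's place relative to that median, the counts were 31, 30 and 30. In absolute terms 32, 33 and 33 members were negative with the scaling used here and 26, 27 and 26 with spike-in scaling.

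The arrays labelled deficient 4 in A/J and C3H/HeJ stood nearest to their strains' controls. Averaged over the 33 members and set against the mean of the strain's control arrays, the 4 deficient arrays of A/J lay at -0.85, -0.52, -0.91 and -0.21, those of C3H/HeJ at -1.33, -1.26, -0.68 and -0.25 and those of WSB/EiJ at -1.49, -1.52, -1.08 and -1.67. A/J control 4 was the lowest control array of its strain at -0.22, level with A/J deficient 4. The counts below are therefore also given without these 3 arrays, a choice made after their values were seen.

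**Figure D1:**
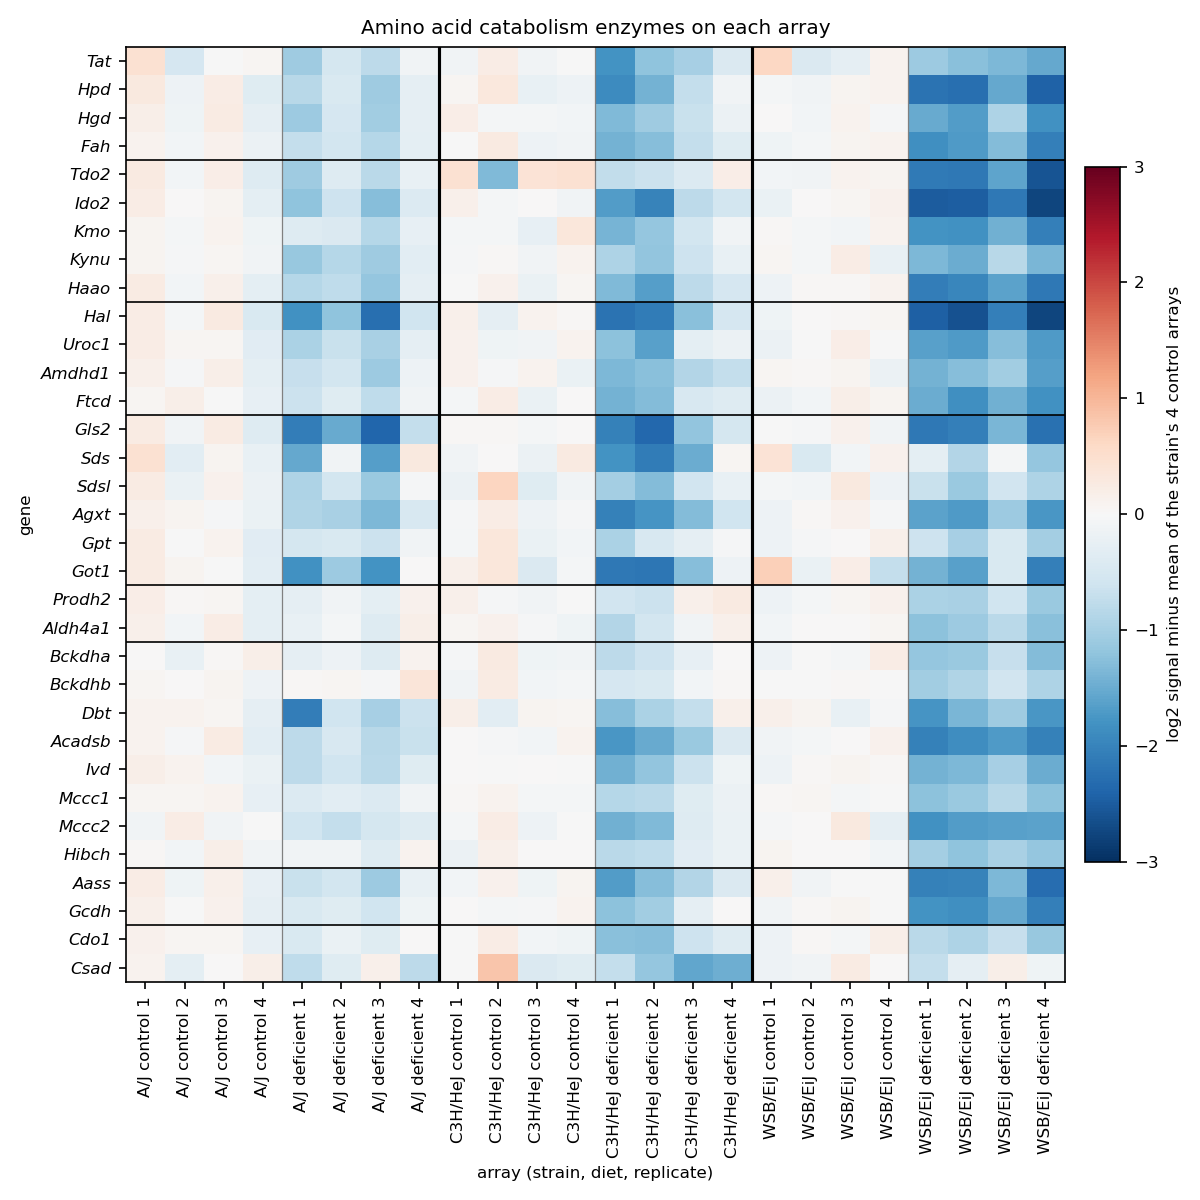
Heat map of the 33 enzymes (rows, by pathway) on the 24 arrays (columns, by strain and diet); colour is the log2 scaled signal minus the mean of the strain's 4 control arrays. The deficient arrays average -0.85 to -0.21 in A/J, -1.33 to -0.25 in C3H/HeJ and -1.67 to -1.08 in WSB/EiJ, and the arrays labelled deficient 4 in A/J and C3H/HeJ are the palest of their groups.

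On the deficient diet the enzymes were lower, few of them in A/J, most in C3H/HeJ and nearly all in WSB/EiJ. In A/J 11 of the 33 fell and 0 rose, in C3H/HeJ 28 fell and 0 rose, and in WSB/EiJ 31 fell and 0 rose (limma, Benjamini-Hochberg adjusted p under 0.05 over all genes). The background matters for reading these counts: 10.4% of all genes were called in A/J (4.68% lower, 5.76% higher), 48.3% in C3H/HeJ (30.9% lower, 17.4% higher) and 73.9% in WSB/EiJ (50.1% lower, 23.7% higher). The median log2 difference of the members was -0.62 in A/J, -0.85 in C3H/HeJ and -1.48 in WSB/EiJ, and 4.90%, 6.42% and 6.66% of all genes lay below those medians. Without the 3 arrays named above, 25, 31 and 31 members were lower. With spike-in scaling the counts were 8 lower and 1 higher in A/J, 15 and 2 in C3H/HeJ and 19 and 1 in WSB/EiJ, and with quantile normalization 13 and 1, 26 and 0, and 24 and 0.

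Control and deficient arrays did not overlap for 12 members in A/J, 20 in C3H/HeJ and 30 in WSB/EiJ, beside 17.8%, 35.0% and 70.1% of all genes. The 11 enzymes that fell in A/J (Hgd, Ido2, Kynu, Haao, Hal, Amdhd1, Gls2, Agxt, Dbt, Acadsb and Ivd) also fell in the other 2 strains. C3H/HeJ and WSB/EiJ shared 26 of their lower enzymes, 92.9% of those in C3H/HeJ and 83.9% of those in WSB/EiJ. Leaving out single arrays moved the A/J count between 4 (without control 1, deficient 1 or deficient 3) and 16 (without deficient 4), and the other A/J counts outside a 1.5-fold range were 5 without control 3 and 7 without control 2. In C3H/HeJ the count ran from 22 (without deficient 2) to 31, and in WSB/EiJ it stayed at 31. All 3 slides hold both diets of each strain. Within each slide and strain, 30 to 33 members had a lower mean on the deficient than on the control arrays. Each of these means rests on 1 or 2 arrays.

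**Figure D2:**
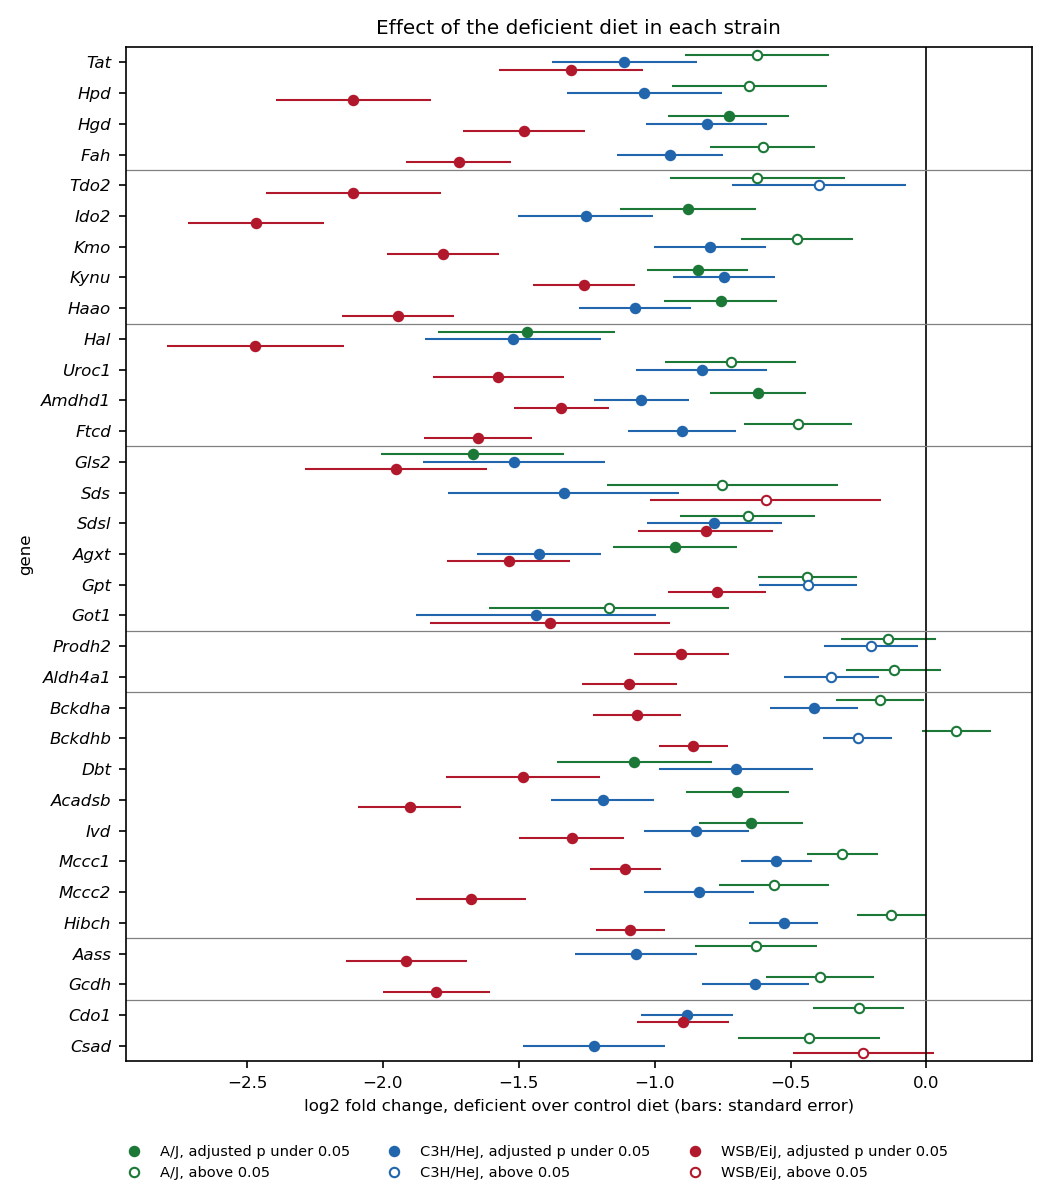
Log2 difference, deficient minus control diet, for each of the 33 enzymes in the 3 strains, with the standard error as bars; filled points have an adjusted p under 0.05. Filled points number 11 in A/J, 28 in C3H/HeJ and 31 in WSB/EiJ, all to the left of 0; the one positive point is Bckdhb in A/J (0.11), which did not pass the test. With spike-in scaling 26, 27 and 26 of the 33 values are negative.

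The mRNA signals of the tyrosine enzymes fell in C3H/HeJ and WSB/EiJ. The 4 enzymes act in a line: Tat removes the amino group, Hpd makes homogentisate, Hgd opens its ring and Fah splits the product into fumarate and acetoacetate. All 4 fell in C3H/HeJ (median -0.99) and in WSB/EiJ (median -1.60), and in A/J only Hgd passed the test (-0.73 ± 0.22 SE, adjusted p = 0.0408). Fah in A/J stood at -0.60 ± 0.19 with an adjusted p of 0.0509.

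Hpd had the largest difference of the 4 in WSB/EiJ. In A/J, Hpd measured 7.48, 7.05, 7.41 and 6.83 on the control arrays and 6.35, 6.75, 6.13 and 6.93 on the deficient arrays. For C3H/HeJ the Hpd values were 7.61, 7.86, 7.31 and 7.38 on the control arrays and 5.64, 6.11, 6.83 and 7.42 on the deficient arrays. WSB/EiJ livers gave 7.79, 7.75, 7.94 and 7.97 on the control arrays and 5.65, 5.60, 6.32 and 5.44 on the deficient arrays. The groups overlapped in A/J and C3H/HeJ, where the deficient array numbered 4 was the highest of its group, and were apart in WSB/EiJ. Hpd fell 4.31-fold in WSB/EiJ (-2.11 ± 0.29, adjusted p = 1.74e-06) and 2.05-fold in C3H/HeJ (-1.04 ± 0.29, adjusted p = 0.00584), and its difference in A/J was -0.65 ± 0.29 (adjusted p = 0.147). The C3H/HeJ call was lost with normexp correction and when only that strain's arrays were fitted. Fah fell 3.30-fold, Hgd 2.79-fold and Tat 2.48-fold in WSB/EiJ, and Tat there lost its call with quantile, spike-in and normexp scaling.

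The tryptophan and kynurenine enzymes had the lowest median of the 8 groups in WSB/EiJ, -1.94, with 5 of 5 lower. Tdo2 and Ido2 open the ring of tryptophan to give formylkynurenine, the source of kynurenine. Kmo and Kynu carry kynurenine to 3-hydroxyanthranilate, and Haao makes the precursor from which quinolinate and NAD are formed. In C3H/HeJ 4 of 5 fell, all but Tdo2, and in A/J Ido2, Kynu and Haao fell.

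Ido2 had the lowest log2 difference of the group in WSB/EiJ. Its A/J values were 2.29, 2.09, 2.15 and 1.77 on the control arrays and 0.87, 1.46, 0.79 and 1.67 on the deficient arrays. C3H/HeJ livers showed 2.36, 2.13, 2.22 and 2.08 on the control arrays and 0.53, 0.19, 1.41 and 1.65 on the deficient arrays. In WSB/EiJ they were 1.14, 1.35, 1.39 and 1.45 on the control arrays and -1.16, -1.14, -0.82 and -1.42 on the deficient arrays. No deficient array reached the control range in any strain. Ido2 fell 5.53-fold in WSB/EiJ (-2.47 ± 0.25, adjusted p = 4.48e-08), 2.39-fold in C3H/HeJ (-1.25 ± 0.25, adjusted p = 0.000525) and 1.84-fold in A/J (-0.88 ± 0.25, adjusted p = 0.028). The A/J call was lost without control 1, 2 or 3 or deficient 1 or 3 (adjusted p up to 0.107) and with median centring.

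Tdo2, the major tryptophan dioxygenase of liver, differed with the diet in WSB/EiJ. A/J arrays gave 5.75, 5.40, 5.67 and 5.08 on the control arrays and 4.40, 5.08, 4.67 and 5.25 on the deficient arrays. Those of C3H/HeJ gave 5.67, 3.89, 5.64 and 5.67 on the control arrays and 4.48, 4.58, 4.81 and 5.41 on the deficient arrays. The WSB/EiJ arrays read 5.86, 5.84, 6.04 and 6.02 on the control arrays and 3.82, 3.79, 4.35 and 3.36 on the deficient arrays. WSB/EiJ alone had groups that did not overlap, and C3H/HeJ control 2 lay far below the other 3 controls of its strain. Tdo2 fell 4.31-fold in WSB/EiJ (-2.11 ± 0.32, adjusted p = 7.5e-06), with -0.62 ± 0.32 in A/J (adjusted p = 0.221) and -0.40 ± 0.32 in C3H/HeJ (adjusted p = 0.319). Without C3H/HeJ control 2 the difference in C3H/HeJ was -0.84 (adjusted p = 0.00887).

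In WSB/EiJ, Kmo (-1.78 ± 0.21), Haao (-1.94 ± 0.21) and Kynu (-1.26 ± 0.19) fell. A second probe of Kmo gave -0.42, -0.78 and -1.64 in A/J, C3H/HeJ and WSB/EiJ, against -0.48, -0.80 and -1.78 from the probe used. For Kynu the second probe gave -0.72, -0.53 and -1.04, against -0.84, -0.75 and -1.26.

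The mRNA signals of all 4 histidine enzymes fell in C3H/HeJ and WSB/EiJ. Hal releases ammonia from histidine to give urocanate, Uroc1 and Amdhd1 carry this to formiminoglutamate, and Ftcd passes the formimino group to tetrahydrofolate. In A/J Hal and Amdhd1 fell, and Uroc1 (-0.72 ± 0.24, adjusted p = 0.0611) and Ftcd (-0.47 ± 0.20, adjusted p = 0.13) did not pass the test.

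Hal had the lowest log2 difference of the 33 enzymes in C3H/HeJ and WSB/EiJ. Its probe lies at chr10:92979135-92979194 in build mm9. On A/J arrays Hal read 6.84, 6.54, 6.87 and 6.16 on the control arrays and 4.79, 5.39, 4.35 and 5.998 on the deficient arrays. C3H/HeJ arrays read 6.69, 6.27, 6.65 and 6.59 on the control arrays and 4.33, 4.45, 5.29 and 6.04 on the deficient arrays. For WSB/EiJ they were 6.93, 7.06, 7.09 and 7.11 on the control arrays and 4.60, 4.42, 4.997 and 4.28 on the deficient arrays. Every deficient array lay below every control array of its strain, although A/J deficient 4 and C3H/HeJ deficient 4 came close to the lowest control. Hal fell 2.77-fold in A/J (-1.47 ± 0.32, adjusted p = 0.00653), 2.87-fold in C3H/HeJ (-1.52 ± 0.32, adjusted p = 0.00095) and 5.54-fold in WSB/EiJ (-2.47 ± 0.32, adjusted p = 1.24e-06). These calls held in every alternative run, and a second Hal probe gave -1.35, -1.73 and -3.08. Amdhd1, the neighbour of Hal, fell by less: 1.54-fold in A/J, 2.07-fold in C3H/HeJ and 2.54-fold in WSB/EiJ. Ftcd fell 1.87-fold in C3H/HeJ and 3.14-fold in WSB/EiJ, and Uroc1 1.77-fold and 2.98-fold.

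**Figure D3:**
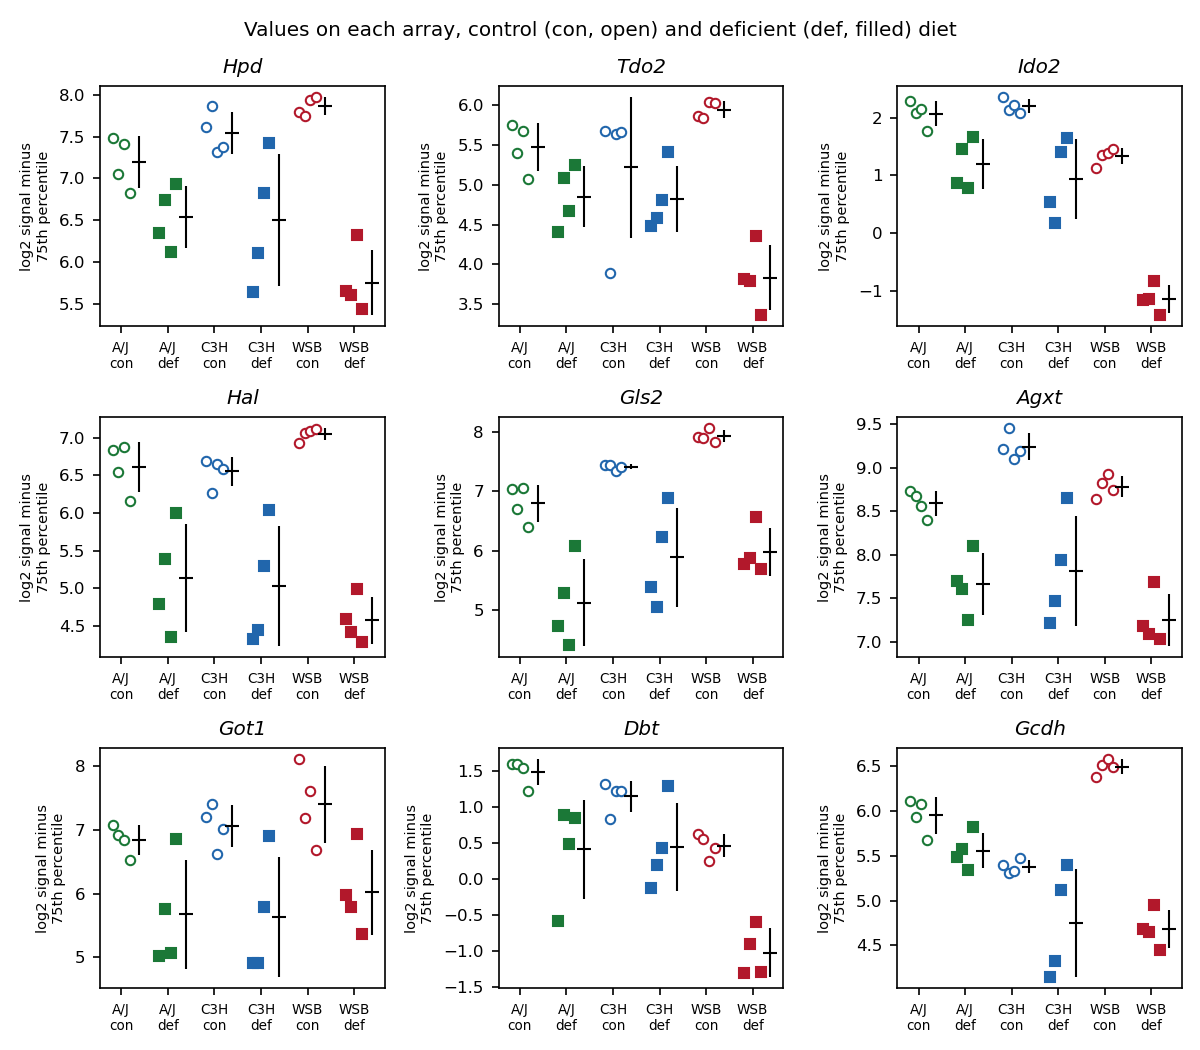
Log2 scaled signal of the 9 enzymes with the largest diet effects or differences between strains, on each array (points), with mean ± SD of the 4 arrays of a group. The WSB/EiJ control and deficient groups are apart for 8 of the 9; the groups of Got1 overlap in all 3 strains.

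The glutamine, serine, glyoxylate and transamination group was lower in 5 of 6 enzymes in C3H/HeJ and in WSB/EiJ, and in A/J for Gls2 and Agxt. The group's median was -1.38 in C3H/HeJ and -1.10 in WSB/EiJ. Gls2, the liver glutaminase, turns glutamine into glutamate and ammonia; Sds and its relative Sdsl deaminate serine; Agxt clears glyoxylate in peroxisomes; and Gpt and Got1 are the alanine and cytosolic aspartate aminotransferases.

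Gls2 had the lowest log2 difference of all 33 in A/J. A/J livers measured 7.04, 6.70, 7.05 and 6.40 on the control arrays and 4.73, 5.29, 4.41 and 6.09 on the deficient arrays. In C3H/HeJ, Gls2 read 7.44, 7.44, 7.35 and 7.41 on the control arrays and 5.39, 5.05, 6.24 and 6.89 on the deficient arrays. WSB/EiJ arrays gave for it 7.91, 7.90, 8.07 and 7.83 on the control arrays and 5.77, 5.88, 6.57 and 5.69 on the deficient arrays. The groups were apart in each strain, with deficient 4 the highest deficient array in A/J and C3H/HeJ and deficient 3 in WSB/EiJ. Gls2 fell 3.18-fold in A/J (-1.67 ± 0.34, adjusted p = 0.0033), 2.86-fold in C3H/HeJ (-1.52 ± 0.34, adjusted p = 0.00124) and 3.87-fold in WSB/EiJ (-1.95 ± 0.34, adjusted p = 3.03e-05), and these calls held in every alternative run.

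Agxt fell in all 3 strains. Its A/J arrays read 8.73, 8.68, 8.56 and 8.40 on the control arrays and 7.70, 7.61, 7.25 and 8.11 on the deficient arrays. In C3H/HeJ the Agxt values were 9.22, 9.46, 9.10 and 9.20 on the control arrays and 7.21, 7.47, 7.94 and 8.65 on the deficient arrays. WSB/EiJ had 8.64, 8.83, 8.92 and 8.75 on the control arrays and 7.18, 7.10, 7.68 and 7.03 on the deficient arrays. Deficient and control arrays were apart in all 3 strains. Agxt fell 1.90-fold in A/J (-0.93 ± 0.23, adjusted p = 0.0127), 2.69-fold in C3H/HeJ (-1.43 ± 0.23, adjusted p = 7.09e-05) and 2.90-fold in WSB/EiJ (-1.54 ± 0.23, adjusted p = 5.21e-06). Without A/J deficient 3 the A/J adjusted p was 0.0608.

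Got1 had the largest standard error of the 33 enzymes in the diet effects, 0.44. Its A/J readings were 7.08, 6.92, 6.84 and 6.52 on the control arrays and 5.03, 5.75, 5.06 and 6.86 on the deficient arrays. For C3H/HeJ, Got1 gave 7.21, 7.41, 6.63 and 7.01 on the control arrays and 4.91, 4.90, 5.79 and 6.90 on the deficient arrays. WSB/EiJ samples had 8.12, 7.19, 7.61 and 6.69 on the control arrays and 5.98, 5.78, 6.94 and 5.36 on the deficient arrays. The groups overlapped in every strain, through deficient 4 in A/J and C3H/HeJ and through control 4 and deficient 3 in WSB/EiJ. Got1 fell 2.71-fold in C3H/HeJ (-1.44 ± 0.44, adjusted p = 0.0116; 0.052 without deficient 2) and 2.61-fold in WSB/EiJ (-1.38 ± 0.44, adjusted p = 0.00814), and stood at -1.17 ± 0.44 in A/J (adjusted p = 0.0959; 0.0197 without deficient 4). The WSB/EiJ call was lost with quantile, spike-in and normexp scaling.

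Sds passed the test in C3H/HeJ (-1.34 ± 0.43, adjusted p = 0.0145), with -0.75 ± 0.43 in A/J and -0.59 ± 0.43 in WSB/EiJ. Sdsl fell in C3H/HeJ (-0.78 ± 0.25) and WSB/EiJ (-0.81 ± 0.25), the latter not with quantile, spike-in or normexp scaling. Gpt fell in WSB/EiJ (-0.77 ± 0.18, adjusted p = 0.000725), where it turned to 0.19 with spike-in scaling and 0.01 with quantile normalization. Its differences were -0.44 ± 0.18 in both A/J and C3H/HeJ, with adjusted p of 0.124 and 0.052.

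Proline and hydroxyproline enzymes fell in WSB/EiJ. Prodh2, which starts hydroxyproline breakdown, was at -0.90 ± 0.17 (adjusted p = 0.000109), and Aldh4a1, which finishes proline and hydroxyproline oxidation in mitochondria, at -1.09 ± 0.18 (adjusted p = 1.35e-05). In A/J they were at -0.14 and -0.12 and in C3H/HeJ at -0.20 and -0.35, none past the threshold. With spike-in scaling the WSB/EiJ call of Aldh4a1 was lost and Prodh2 turned to 0.06.

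Of the 8 branched chain enzymes 3 fell in A/J, 7 in C3H/HeJ and 8 in WSB/EiJ. Bckdha, Bckdhb and Dbt are subunits of the dehydrogenase complex that commits leucine, isoleucine and valine to oxidation, Acadsb and Ivd are the next dehydrogenases for isoleucine and leucine, Mccc1 and Mccc2 form the carboxylase of leucine breakdown, and Hibch acts on valine. Acadsb had the lowest log2 difference of the 8 in C3H/HeJ (-1.19 ± 0.19) and in WSB/EiJ (-1.90 ± 0.19, adjusted p = 3.35e-08). Ivd fell in all 3 strains (-0.65, -0.85 and -1.31), and Mccc2 in C3H/HeJ (-0.84 ± 0.20) and WSB/EiJ (-1.68 ± 0.20).

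The 3 subunits of the dehydrogenase complex had different values in A/J. Dbt read there 1.60, 1.60, 1.54 and 1.22 on the control arrays and -0.58, 0.89, 0.49 and 0.85 on the deficient arrays. C3H/HeJ arrays had Dbt at 1.33, 0.84, 1.23 and 1.22 on the control arrays and -0.12, 0.20, 0.43 and 1.30 on the deficient arrays. Its WSB/EiJ values were 0.62, 0.56, 0.25 and 0.44 on the control arrays and -1.30, -0.89, -0.59 and -1.29 on the deficient arrays. Groups were apart in A/J and WSB/EiJ and overlapped in C3H/HeJ through deficient 4. Dbt fell 2.11-fold in A/J (-1.07 ± 0.28, adjusted p = 0.0195), 1.62-fold in C3H/HeJ (-0.70 ± 0.28, adjusted p = 0.0475) and 2.80-fold in WSB/EiJ (-1.49 ± 0.28, adjusted p = 9.73e-05). Without A/J control 1 or deficient 1 the A/J adjusted p was up to 0.0822, and the C3H/HeJ call was lost when any of 17 single arrays was left out.

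Bckdhb in A/J measured 6.43, 6.38, 6.45 and 6.21 on the control arrays and 6.40, 6.44, 6.34 and 6.73 on the deficient arrays. In C3H/HeJ, Bckdhb values were 6.46, 6.82, 6.47 and 6.52 on the control arrays and 6.05, 6.10, 6.49 and 6.60 on the deficient arrays. The WSB/EiJ livers showed for it 6.39, 6.39, 6.44 and 6.40 on the control arrays and 5.37, 5.50, 5.83 and 5.49 on the deficient arrays. The deficient arrays overlapped the controls in A/J and C3H/HeJ and lay below them in WSB/EiJ, where Bckdhb fell 1.81-fold (-0.86 ± 0.13, adjusted p = 5.35e-06). The differences in A/J and C3H/HeJ were 0.11 ± 0.13 and -0.25 ± 0.13 (adjusted p = 0.612 and 0.105). Bckdha fell in C3H/HeJ (-0.41 ± 0.16) and WSB/EiJ (-1.07 ± 0.16), with -0.17 ± 0.16 in A/J. On spike-in scaling the C3H/HeJ value of Bckdha turned to 0.10 and the WSB/EiJ value of Bckdhb to 0.11. Mccc1 and Hibch fell in C3H/HeJ (-0.55 and -0.53) and WSB/EiJ (-1.11 and -1.09).

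Both lysine enzymes fell in C3H/HeJ and WSB/EiJ. Aass starts lysine breakdown through saccharopine, and Gcdh acts further down on glutaryl-CoA. Gcdh on A/J arrays gave 6.11, 5.93, 6.08 and 5.67 on the control arrays and 5.48, 5.57, 5.34 and 5.82 on the deficient arrays. C3H/HeJ samples gave 5.39, 5.31, 5.33 and 5.48 on the control arrays and 4.15, 4.33, 5.11 and 5.40 on the deficient arrays. From WSB/EiJ came 6.38, 6.51, 6.57 and 6.48 on the control arrays and 4.69, 4.65, 4.95 and 4.45 on the deficient arrays. The WSB/EiJ groups were apart by more than a doubling, while in A/J and C3H/HeJ deficient 4 lay inside the control range. Gcdh fell 3.49-fold in WSB/EiJ (-1.80 ± 0.20, adjusted p = 1.26e-07) and 1.55-fold in C3H/HeJ (-0.63 ± 0.20, adjusted p = 0.0132), and stood at -0.39 ± 0.20 in A/J (adjusted p = 0.21). The C3H/HeJ call of Gcdh was lost without deficient 1 or deficient 2 (adjusted p up to 0.069) and with spike-in scaling. Aass fell 2.10-fold in C3H/HeJ and 3.77-fold in WSB/EiJ.

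Cysteine and taurine enzymes fell in C3H/HeJ, and in WSB/EiJ Cdo1 alone did. Cdo1 oxidises cysteine to its sulfinate and Csad decarboxylates that on the way to taurine. Cdo1 was at -0.25 ± 0.17 in A/J, -0.88 ± 0.17 in C3H/HeJ and -0.90 ± 0.17 in WSB/EiJ, the last turning to 0.07 with spike-in scaling. Csad in A/J read 3.68, 3.28, 3.57 and 3.76 on the control arrays and 2.82, 3.21, 3.73 and 2.80 on the deficient arrays. In C3H/HeJ Csad was 4.43, 5.27, 4.000 and 4.07 on the control arrays and 3.73, 3.28, 2.89 and 2.98 on the deficient arrays. WSB/EiJ showed 2.13, 2.16, 2.53 and 2.28 on the control arrays and 1.55, 2.005, 2.46 and 2.16 on the deficient arrays. The groups were apart in C3H/HeJ and overlapped in A/J and WSB/EiJ. Csad fell 2.34-fold in C3H/HeJ (-1.22 ± 0.26, adjusted p = 0.000949), with -0.43 ± 0.26 in A/J (adjusted p = 0.295) and -0.23 ± 0.26 in WSB/EiJ (adjusted p = 0.428; 0.73 on the log2 scale with spike-in scaling). Each enzyme was also correlated over the 24 arrays with the mean of the other 32, after each group's mean had been subtracted. These values describe how arrays of the same strain and diet vary together, and hold no diet effect. Their median was 0.886, with 0.961 for Gls2, 0.495 for Tdo2 and -0.256 for Csad. These correlations were not set beside those of all genes or of hepatocyte markers. Whether the enzymes vary together more than other genes was therefore not tested. On the C3H/HeJ deficient arrays their mean deviations were -0.45, -0.38, 0.20 and 0.63, beside 75th percentiles of 8.49, 8.32, 7.90 and 7.88. On those of WSB/EiJ they were -0.05, -0.08, 0.36 and -0.23, beside 8.58, 8.51, 8.37 and 8.46. The part of array scaling was not tested.

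Whether the diet effect differed between strains was tested as the difference of differences. The fall was deeper in WSB/EiJ than in A/J for 21 of the 33 enzymes and deeper than in C3H/HeJ for 13, and 0 went the other way past limma's threshold. Against C3H/HeJ 1 did with other scaling: Cdo1 with quantile normalization (0.44), and Csad with median centring (1.10) and spike-in scaling (1.44). Of all genes, 50.3% differed between WSB/EiJ and A/J (33.6% in the negative direction) and 25.9% between WSB/EiJ and C3H/HeJ (16.5% negative, 9.31% positive). Between C3H/HeJ and A/J 0 members passed limma's adjusted threshold, beside 3.60% of all genes; array weights gave 2, and leaving out C3H/HeJ deficient 4 gave 3. These comparisons share arrays (A/J in 2 of them, WSB/EiJ in 2, C3H/HeJ in 2), so their results are not independent. The median of the members' differences was -0.86 for WSB/EiJ minus A/J and -0.67 for WSB/EiJ minus C3H/HeJ, beside -0.26 and -0.16 over all genes. The scaling moved the count against A/J to 13 with quantile normalization and 11 with spike-in probes, and that against C3H/HeJ to 3 with either. The count against C3H/HeJ also moved with single arrays: it was 8, 6 and 7 without C3H/HeJ control 1, 3 and 4, 5 without C3H/HeJ deficient 3 or 4, 6, 7 and 8 without WSB/EiJ control 2, 3 and 4, 6 without WSB/EiJ deficient 1, and 5 without WSB/EiJ deficient 2 or 4.

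Ido2, Tdo2, Hpd and Gcdh had the largest differences between strains. For Ido2 the WSB/EiJ effect differed from that of A/J by -1.59 ± 0.35 (adjusted p = 0.00122) and from that of C3H/HeJ by -1.21 ± 0.35 (adjusted p = 0.0169). Tdo2 differed by -1.49 ± 0.45 from A/J (adjusted p = 0.0109) and by -1.71 ± 0.45 from C3H/HeJ (adjusted p = 0.00997). The size of the latter rests in part on C3H/HeJ control 2, which read 3.89 against 5.67, 5.64 and 5.67 on that strain's other controls. Without that array the fall of Tdo2 in C3H/HeJ was deeper, so its difference from WSB/EiJ was smaller. Gcdh differed by -1.41 ± 0.28 from A/J (adjusted p = 0.000491) and by -1.17 ± 0.28 from C3H/HeJ (adjusted p = 0.00504). The Ido2 and Gcdh differences and that of Tdo2 from C3H/HeJ kept their call in every alternative run; that of Tdo2 from A/J was lost with quantile, spike-in and normexp scaling and without both A/J arrays numbered 4. Hpd differed from A/J by -1.46 ± 0.40 (adjusted p = 0.00585), and its difference from C3H/HeJ was -1.07 ± 0.40 (adjusted p = 0.0552; called without C3H/HeJ control 2, C3H/HeJ deficient 1 or 2, or WSB/EiJ deficient 3).

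By pathway, the difference between WSB/EiJ and A/J passed for 7 of 8 branched chain enzymes, 4 of 5 of the tryptophan group, 3 of 4 of the histidine group, 2 of 4 of the tyrosine group, both lysine enzymes, both proline enzymes and 1 of 2 of the cysteine group. In the glutamine, serine, glyoxylate and transamination group 0 of 6 passed against either strain by limma's test. For Gls2 the difference between WSB/EiJ and A/J was -0.28 with a 95% interval from -1.27 to 0.71, and for Got1 -0.22 with an interval from -1.52 to 1.08, so these data allow a difference of a doubling either way for Got1. Hal differed by -0.998 from A/J (interval -1.95 to -0.04, adjusted p = 0.0753), and passed without A/J deficient 3 or without C3H/HeJ deficient 4. Without A/J control 4 and the arrays labelled deficient 4 in A/J and C3H/HeJ, 17 members differed between WSB/EiJ and A/J and 8 between WSB/EiJ and C3H/HeJ.

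The difference of Csad between WSB/EiJ and C3H/HeJ was positive, 0.99 ± 0.37 on the log2 scale, and did not pass the threshold (adjusted p = 0.053, interval 0.22 to 1.76). Over the 33 enzymes the lowest of the 3 strains' diet effects was that of WSB/EiJ for 30 and that of C3H/HeJ for Sds, Got1 and Csad.

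**Figure D4:**
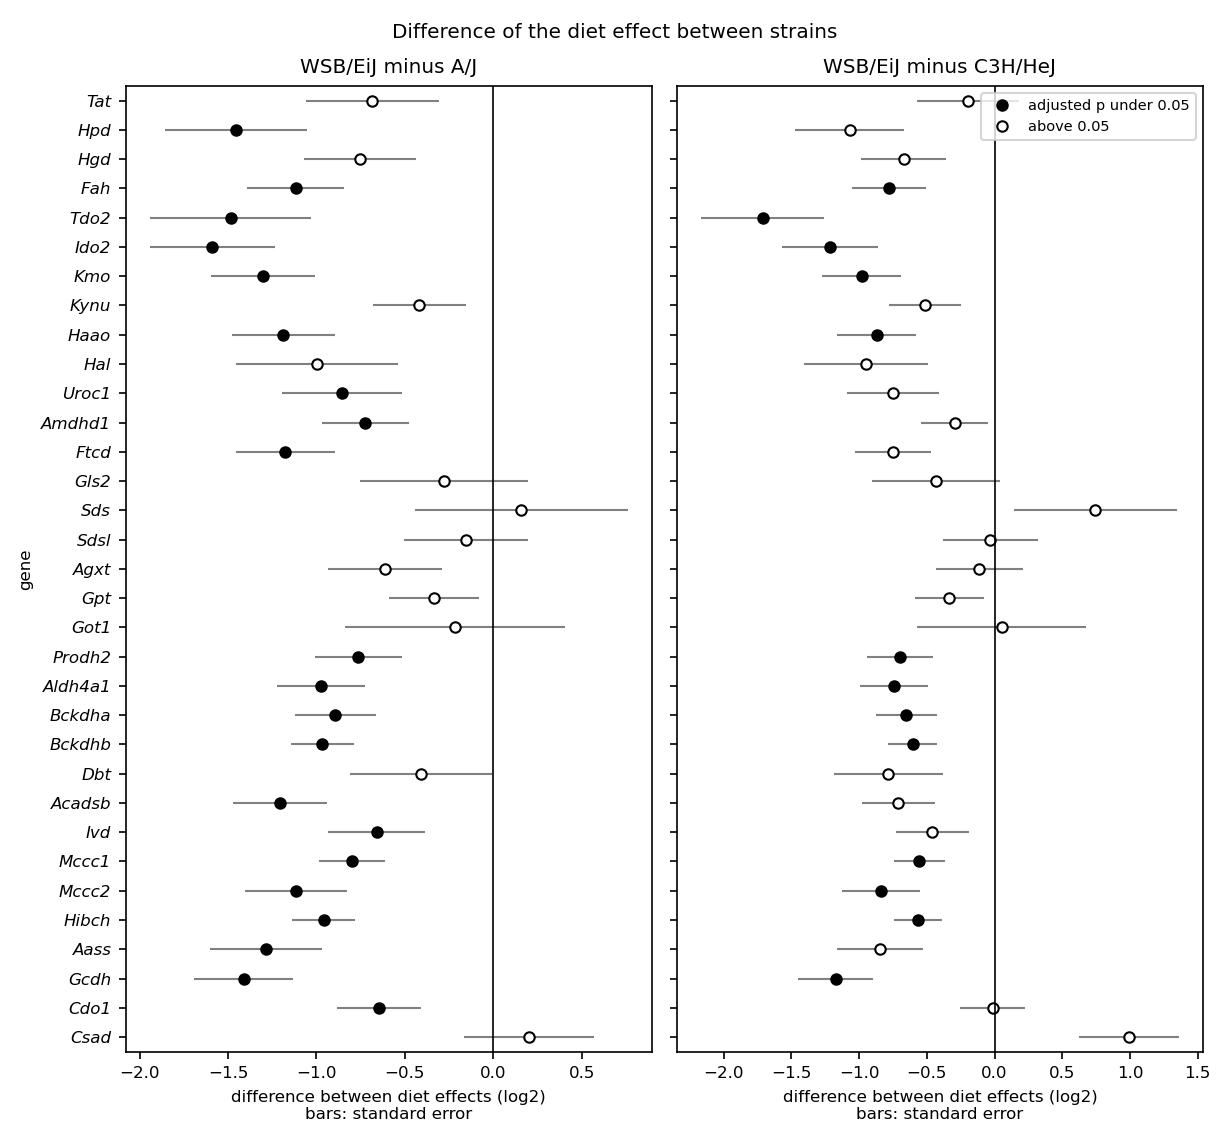
Difference between diet effects (log2) for each enzyme, WSB/EiJ minus A/J on the left and WSB/EiJ minus C3H/HeJ on the right, with standard errors; filled points have an adjusted p under 0.05. There are 21 filled points on the left and 13 on the right, all negative, and those of the glutamine, serine, glyoxylate and transamination group are open; with quantile or normexp scaling the difference of Cdo1 between WSB/EiJ and C3H/HeJ is positive (0.44 and 0.45).

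Strains also differed in signal on the control diet. Probes were not compared with the strains' genomes, so RNA level and sequence under a probe cannot be told apart in these differences. Against A/J, WSB/EiJ had 14 enzymes higher and 4 lower, beside 44.9% of all genes called (26.6% higher, 18.4% lower). Against C3H/HeJ, WSB/EiJ had 8 higher and 3 lower, beside 40.3% of all genes (21.7% higher, 18.7% lower). C3H/HeJ against A/J had 4 higher and 1 lower, beside 24.6% of all genes (14.1% higher, 10.4% lower). Control groups did not overlap for 22, 22 and 11 of the 33 in that order, beside 46.0%, 41.9% and 27.4% of all genes. The 3 comparisons share their control arrays. Single arrays moved the smaller counts: C3H/HeJ against A/J had 1 higher without A/J control 2 or C3H/HeJ control 2, 2 higher without A/J control 4 or C3H/HeJ control 4, and 0 lower without A/J control 1, 2 or 3 or any 1 C3H/HeJ control array, and WSB/EiJ against C3H/HeJ had 5 lower without C3H/HeJ deficient 4.

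Tat was higher in WSB/EiJ than in the other strains. Its control arrays read 7.63, 6.66, 7.15 and 7.23 in A/J, 7.12, 7.44, 7.11 and 7.20 in C3H/HeJ and 9.34, 8.29, 8.46 and 8.84 in WSB/EiJ. Every WSB/EiJ control lay above every control of the other strains, by 2.96-fold over A/J (1.56 ± 0.27, adjusted p = 6.67e-05) and 2.86-fold over C3H/HeJ (1.51 ± 0.27, adjusted p = 0.000103). On the deficient diet Tat in WSB/EiJ read 7.65, 7.48, 7.38 and 7.19, which is within the range of, or just above, the A/J and C3H/HeJ control arrays.

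Mccc2 followed the same order. The Mccc2 control arrays read 1.90, 2.22, 1.90 and 1.99 in A/J, 2.14, 2.42, 2.05 and 2.18 in C3H/HeJ and 3.32, 3.36, 3.63 and 3.09 in WSB/EiJ. WSB/EiJ was apart from both, 2.54-fold above A/J (1.35 ± 0.20, adjusted p = 1.73e-05) and 2.23-fold above C3H/HeJ (1.16 ± 0.20, adjusted p = 0.000107). On the deficient arrays Mccc2 read 1.40, 1.29, 1.47 and 1.61 in A/J, 0.75, 0.87, 1.80 and 2.002 in C3H/HeJ and 1.55, 1.68, 1.72 and 1.74 in WSB/EiJ, so that the strains overlapped there.

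Csad was lowest in WSB/EiJ, 2.45-fold below A/J (-1.29 ± 0.26, adjusted p = 0.000391) and 4.48-fold below C3H/HeJ (-2.16 ± 0.26, adjusted p = 1.05e-06). All WSB/EiJ controls lay below all A/J controls and these below all C3H/HeJ controls, and C3H/HeJ also exceeded A/J (0.87 ± 0.26, adjusted p = 0.0183; not without A/J control 2 or C3H/HeJ control 2, nor with spike-in scaling). The Tat, Mccc2 and WSB/EiJ Csad calls held in every alternative run. Ido2 was lower in WSB/EiJ than in A/J (-0.74 ± 0.25, adjusted p = 0.0203; 0.0566 at most without A/J control 1 or WSB/EiJ control 1) and than in C3H/HeJ (-0.87 ± 0.25, adjusted p = 0.0084), so its deeper fall in WSB/EiJ began from a lower level.

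Other enzymes that were higher in WSB/EiJ than in A/J on the control diet were Kmo, Uroc1, Ftcd, Gls2, Sdsl, Prodh2, Aldh4a1, Acadsb, Ivd, Hibch, Aass and Gcdh, by 0.47 (Prodh2) to 1.32 (Sdsl) on the log2 scale. Amdhd1 (-0.66 ± 0.18), Dbt (-1.02 ± 0.28) and, against C3H/HeJ, Haao (-0.67 ± 0.21) were lower in WSB/EiJ. C3H/HeJ exceeded A/J for Aldh4a1 (1.03 ± 0.18, adjusted p = 0.000173), Sdsl (0.72 ± 0.25) and Agxt (0.65 ± 0.23), and was below it for Gcdh (-0.57 ± 0.20). The calls of Sdsl, Agxt and Gcdh between C3H/HeJ and A/J had adjusted p of 0.0382, 0.041 and 0.0396. Leaving out single arrays ended them: Sdsl without A/J control 2 or 4 or C3H/HeJ control 2 or 4, Agxt without any one of the 8 control arrays of both strains, and Gcdh without any of these but A/J control 4.

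**Figure D5:**
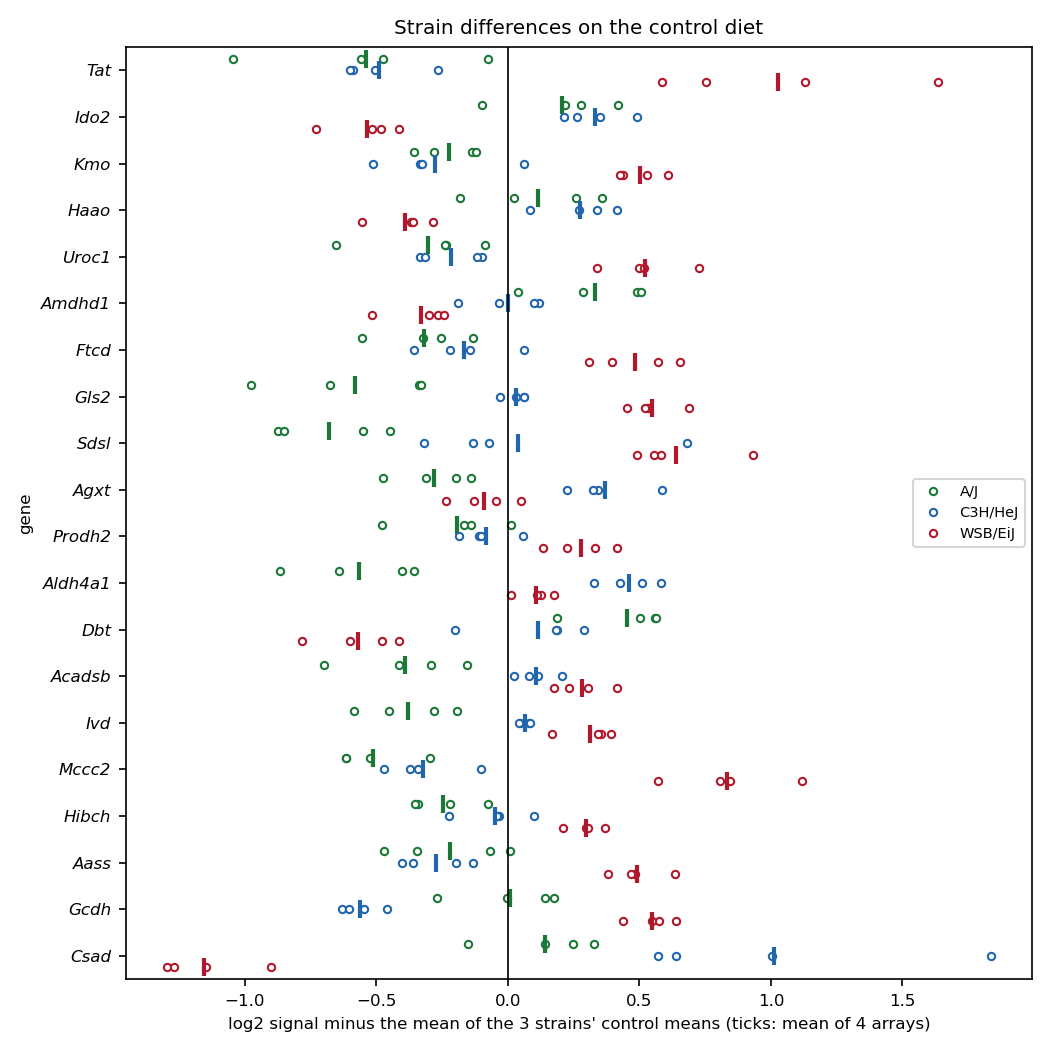
Control arrays of the 3 strains for the 20 enzymes with at least 1 strain difference on the control diet (adjusted p under 0.05); points are arrays and ticks are group means, as log2 scaled signal minus the mean of the 3 strains' control means. WSB/EiJ lies highest for Tat and Mccc2 and lowest for Csad; C3H/HeJ lies highest for Aldh4a1, above A/J by 1.03.

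Most further enzymes of amino acid breakdown that passed the test were lower as well. In a list of 46 further amino acid catabolism enzymes, 43 were tested, and 8 fell in A/J, 23 in C3H/HeJ and 39 in WSB/EiJ, where 2 rose, beside 4.68%, 30.9% and 50.1% of all genes called lower, with medians of -0.26, -0.55 and -1.41. Afmid, which hydrolyses formylkynurenine between Tdo2 and Kmo, fell in all 3 strains (-1.11 ± 0.32, -1.78 ± 0.32 and -3.63 ± 0.32), and Acmsd, which diverts the product of Haao from NAD synthesis, fell in all 3 as well (-1.87, -1.24 and -1.85, each ± 0.36). Oat, the ornithine aminotransferase, fell in WSB/EiJ (-3.10 ± 0.32), as did Aadat (-2.53 ± 0.38), an aminotransferase of kynurenine and lysine breakdown. In A/J and C3H/HeJ neither passed the test, with -0.48 and -0.17 for Oat and -0.24 and -0.47 for Aadat. Etnppl, a phosphoethanolamine lyase, fell in all 3 strains (-1.79, -1.89 and -2.49, each ± 0.50).

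Of 14 amino acid transporters of liver 0 fell in A/J by limma's test, 9 in C3H/HeJ and 12 in WSB/EiJ. The shares of all genes called lower were 4.68%, 30.9% and 50.1%. Slc1a2, a glutamate transporter, fell in WSB/EiJ (-3.97 ± 0.26) and was at 0.05 in A/J and -0.56 in C3H/HeJ, neither past the threshold. Slc38a3, a glutamine transporter, fell in C3H/HeJ (-0.65 ± 0.22) and WSB/EiJ (-1.81 ± 0.22). Slc38a4, Slc6a12 and Slc38a2 had the lowest values of the list in C3H/HeJ (-1.06, -1.03 and -0.88), and fell in WSB/EiJ too (-1.39, -1.75 and -0.94). Among 12 regulators of these pathways 1, 6 and 10 fell, beside 4.68%, 30.9% and 50.1% of all genes. Ppm1k, the phosphatase that activates the branched chain dehydrogenase complex, was at -0.97 ± 0.29 in C3H/HeJ and -1.86 ± 0.29 in WSB/EiJ, while Bckdk, the kinase that inactivates it, was at 0.17, -0.01 and 0.01 in the 3 strains and passed in none. Klf15, a transcription factor known for its role in amino acid breakdown, fell in C3H/HeJ (-0.68 ± 0.25) and WSB/EiJ (-1.32 ± 0.25), as did Hnf4a (-0.47 ± 0.16 and -1.32 ± 0.16).

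Markers of cell types moved with the diet as well. All 10 hepatocyte markers were above background on all 24 arrays. With the scaling used here 0 of them passed limma's test in A/J, and 10 of 10 fell in both C3H/HeJ and WSB/EiJ. The shares of all genes called lower were 4.68%, 30.9% and 50.1%, and the hepatocyte markers had medians of -0.35, -0.58 and -1.08. Their mean level per array ran from 9.96 to 10.30 in A/J controls and 9.58 to 10.09 on the deficient diet, from 9.90 to 10.36 and 9.18 to 9.92 in C3H/HeJ, and from 10.02 to 10.18 and 8.89 to 9.24 in WSB/EiJ. The falls of the hepatocyte markers depend on the scaling, since spike-in scaling shifts all genes alike. It moved the median of all genes from -0.07, -0.16 and -0.33 to 0.31, 0.36 and 0.63. The hepatocyte markers' medians rise by the same shift, and calls of markers with spike-in scaling are not reported here. With the scaling used here, 5.76%, 17.4% and 23.7% of all genes were called higher in A/J, C3H/HeJ and WSB/EiJ. Macrophage and monocyte markers rose in 5, 7 and 8 of 10, with medians of 0.86, 1.43 and 3.67. Their mean level went from a range of 0.58 to 1.15 to one of 1.90 to 2.79 in A/J, from 0.07 to 0.31 to 1.76 to 2.64 in C3H/HeJ, and from -0.75 to -0.44 to 3.20 to 3.53 in WSB/EiJ. Stellate cell and fibroblast markers rose in 3, 8 and 9 of 10, with medians of 0.77, 1.63 and 2.65, and biliary and progenitor markers in 0, 3 and 6 of 7. The medians of the 33 enzymes (-0.62, -0.85 and -1.48) lay below those of the hepatocyte markers in each strain; the part of cell composition in the members' differences was not tested.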

How the data were processed

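Expression was measured in 24 liver RNA samples on 1-colour (Cy3) Agilent arrays, 1 array per sample, 4 per strain and diet, on 3 slides of 8 arrays that each hold all 3 strains and both diets. The scanner files deposited by the authors hold intensity values; per the file headers the software was Agilent Feature Extraction (version 10.7 per the submitters' processing notes), which subtracted background, removed a multiplicative trend and flagged outlier spots, with no scaling between arrays. The authors' deposited table of intensity values equals the processed signal times 1 constant per array (largest relative deviation 1.12e-07). It is used as an alternative, and 0 of its columns of values lack a sample.

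Spots flagged as outliers were left out (3332 in all, of 59305 gene spots on each array) and 0 gene spots were saturated. Each array's log2 processed signal was set relative to its 75th percentile, and replicate spots of a probe were averaged. Of 55681 distinct probes 32275 had a gene name (26764 by accession and 3818 by symbol and 638 by synonym in the RefSeq table, 1055 by the file's own name). A probe was kept if some group had it well above background on each of its 4 arrays (28162 probes), and each of the 15344 genes was read by its brightest probe. Genome positions of probes are those in the array files (mm9); probes were not aligned again or compared with the strains' genomes. 37 of the members' 40 probes passed the filter.

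The model, fitted with limma 3.58.1 (lmFit, eBayes) in R 4.3.3, had a mean for each of the 6 groups and used all 24 arrays, and tests are two-sided with Benjamini-Hochberg adjustment over all genes at 0.05; ± is the standard error of the fit unless SD is written. Intervals are 95%. The members and lists were chosen with earlier results of these data known. Named with all arrays were, per strain, the 4 called members with the largest diet effects, and the 4 with the largest differences between strains; Tat, Mccc2, Bckdhb and Csad were added after their values were seen. Of every other list called genes with the largest changes (up to 3) are named; some results are not reported here. The marker lists not described with the results gave the following counts in A/J, C3H/HeJ and WSB/EiJ: endothelial 1, 3 and 2 of 8 higher and 0, 0 and 3 lower; lymphocyte 1, 3 and 4 of 8 higher and 1, 1 and 2 lower; neutrophil 0, 0 and 1 of 4 higher and 1, 2 and 2 lower; erythroid 2, 5 and 3 of 5 lower; exocrine pancreas 0, 0 and 2 of 5 higher; and kidney 0, 1 and 2 of 2 lower. Beside these counts, 5.76%, 17.4% and 23.7% of all genes were called higher and 4.68%, 30.9% and 50.1% lower. The number of arrays limits the precision. Alternatives were median, quantile and spike-in scaling, normexp (offset 50), other filters and probe rules, slide and replicate blocks, array weights, another prior, only the groups compared, and leaving out arrays. The scripts were tested on simulated data.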

Additional observations from a re-analysis of the deposited data

Results flagged for a closer look

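Of the 33 enzymes in 6 groups, 5 of 198 sets of 4 arrays (2.53%) had 1 array far from the other 3, by the gap to its neighbour as a share of the group's range (Dixon's test, critical value at 95%); chance gives about 1 in 20. The shares were 0.953 for Hgd (C3H/HeJ control 1, highest), 0.980 for Tdo2 (C3H/HeJ control 2, lowest), 0.832 for Bckdhb (C3H/HeJ control 2, highest), 0.838 for Dbt (A/J control 4, lowest) and 0.851 for Mccc1 (A/J control 4, lowest). Without C3H/HeJ control 2 the diet effect of Tdo2 in that strain was -0.84 in place of -0.40.

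The diet effect differed between WSB/EiJ and A/J by limma's interaction test (adjusted p under 0.05) for 21 enzymes, by these log2 differences: Hpd -1.46, Fah -1.12, Tdo2 -1.49, Ido2 -1.59, Kmo -1.30, Haao -1.19, Uroc1 -0.86, Amdhd1 -0.72, Ftcd -1.18, Prodh2 -0.76, Aldh4a1 -0.97, Bckdha -0.89, Bckdhb -0.97, Acadsb -1.21, Ivd -0.66, Mccc1 -0.80, Mccc2 -1.12, Hibch -0.96, Aass -1.29, Gcdh -1.41 and Cdo1 -0.65. Between WSB/EiJ and C3H/HeJ it differed for 13: Fah -0.78, Tdo2 -1.71, Ido2 -1.21, Kmo -0.98, Haao -0.87, Prodh2 -0.70, Aldh4a1 -0.74, Bckdha -0.65, Bckdhb -0.60, Mccc1 -0.56, Mccc2 -0.84, Hibch -0.56 and Gcdh -1.17. Both comparisons use the same WSB/EiJ arrays. The calls of Hpd, Fah, Ido2, Kmo, Haao, Acadsb, Bckdhb, Mccc2, Aass and Gcdh against A/J, and of Tdo2, Ido2 and Gcdh against C3H/HeJ, held in every alternative run.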

How the results depend on the processing

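Numbers here are enzymes called lower or higher among the 33. Where 1 array fewer was used per group, the array left out was the one least correlated with the rest of its group. That choice was made from the values and can narrow the spread, which favours more calls. In A/J 1 was higher with quantile, spike-in and normexp scaling, and 6 were lower with median centring, 24 with array weights, 19 without both A/J arrays numbered 4, 26 with 1 array fewer per group and 25 without the 3 arrays nearest the other diet. Spike-in scaling gave 15 lower and 2 higher in C3H/HeJ and 19 lower and 1 higher in WSB/EiJ. For the diet effect of C3H/HeJ minus A/J, array weights gave 2 lower. For WSB/EiJ minus A/J, 13 were lower with quantile, 11 with spike-in and 13 with normexp scaling. For WSB/EiJ minus C3H/HeJ, 1 was higher with quantile, median, spike-in and normexp scaling, with only probes detected on every array and with a trended robust prior; 3 were lower with quantile, median and spike-in scaling, 4 with normexp, 6 with no filter, and 8 with slide as a fixed block, with only the groups compared or without the 3 arrays. On the control diet, C3H/HeJ against A/J had 2 higher with no filter, slide as a fixed block, replicate block, without both A/J arrays numbered 4 and with 1 array fewer, 2 lower with quantile, spike-in and normexp scaling and 0 lower with median centring or no filter. WSB/EiJ against A/J had 7 lower with quantile and normexp scaling; WSB/EiJ against C3H/HeJ had 13 higher with only the groups compared, and 9 lower with quantile, spike-in and normexp scaling, 7 with array weights or only the groups compared and 6 without the 3 arrays. Leaving out 1 array gave 4 to 16 lower in A/J, 22 to 31 in C3H/HeJ and 31 in WSB/EiJ; 0 to 3 for C3H/HeJ minus A/J, 17 to 24 for WSB/EiJ minus A/J, and 5 to 19 lower with 0 to 1 higher for WSB/EiJ minus C3H/HeJ; and on the control diet 0 to 1 lower and 1 to 6 higher, 3 to 5 lower and 12 to 15 higher, and 3 to 5 lower and 6 to 9 higher. Single values that reversed were, with spike-in scaling, Prodh2 0.31, Bckdha 0.10 and Bckdhb 0.26 in C3H/HeJ, and Sdsl 0.15, Gpt 0.19, Prodh2 0.06, Bckdhb 0.11, Cdo1 0.07 and Csad 0.73 in WSB/EiJ; with normexp, Bckdha 0.07 in C3H/HeJ, Cdo1 0.45 in WSB/EiJ minus C3H/HeJ and Bckdhb -0.27 in WSB/EiJ against A/J on the control diet; and with quantile normalization Gpt 0.01 in WSB/EiJ, Cdo1 0.44 and Bckdhb -0.27 in those comparisons. The causes were not tested. With the replicate number as a block, 10, 27 and 31 were lower in the 3 strains, 20 for WSB/EiJ minus A/J and 11 for WSB/EiJ minus C3H/HeJ. The numbers are not shown to pair the arrays: over 12 same-numbered pairs, deviations from the group means correlated from -0.353 to 0.0570, 0 above 0.1, and 1 array correlated best with its own number. Signal over background limited no member, as all 33 passed on all 24 arrays.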
